A study of Mus musculus with 3 samples.

Results

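The genes described here are 10 components of the extracellular matrix: Col4a1, Col4a2, Lama4, Lamb2, Nid1, Hspg2, Col13a1, Sparc, Ltbp4 and Fn1. They were chosen by symbol from the 31053 genes of a single-cell RNA count matrix of mouse liver non-parenchymal cells and all 10 had a row. Of them, Col4a1, Col4a2 and Col13a1 encode collagens, and Lama4, Lamb2, Nid1 and Hspg2 encode other basement membrane proteins, whereas Sparc, Ltbp4 and Fn1 encode matrix-associated proteins that are not basement membrane subunits.

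The study concerned mRNA delivery by lipid nanoparticles (LNPs) that differ in the stereochemistry of a cholesterol derivative. Liver cells were sorted 3 h after mice were injected with 20a-LNP or 20mix-LNP, each carrying Cre mRNA at 0.3 mg/kg, or with phosphate-buffered saline (PBS). All mice, the PBS control included, carried the LSL-Tomato (Ai14) reporter, which makes a red fluorescent protein once Cre has removed a stop cassette. Livers were perfused, minced and digested with collagenases and hyaluronidase, and 1 droplet library (10x 3′ version 3) was made per treatment from about 2000 loaded cells. The age and sex of the mice, how many livers entered a library and which populations the sort collected are not stated in the sources used here.

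The pooled matrix held 24111183 unique molecular identifiers (UMIs, counts of distinct captured RNA molecules) in 4638 barcodes. These carried the library suffixes 1, 2 and 3, with 6144949, 8754827 and 9211407 UMIs, and no source used here ties a suffix to a treatment. Values are therefore given by suffix, and no effect of an LNP was analysed. A minimum of 200 detected genes and a maximum of 20% mitochondrial UMIs left 3230 cells (761, 1119 and 1350 under suffixes 1, 2 and 3) with a median of 5690.5 UMIs. Barcode sequences shared between suffixes numbered 3. A cell was placed in a class when its raw lineage marker UMIs reached 3 from at least 2 markers and were at least 4 times those of every other class. This placed 2282 cells, and 948 (29.3%) stayed ungated. The sinusoidal endothelial gate (Stab2, Clec4g, Oit3 and Gpr182) held 820 cells, with 203, 133 and 484 under suffixes 1, 2 and 3 and a median of 5819.5 UMIs. Another 7 classes had at least 50 cells and entered the comparison: Kupffer (204 cells), monocyte (120), neutrophil (61), conventional dendritic 1 (60), plasmacytoid dendritic (344), NK or ILC1 (505) and T (58).

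A basement membrane is a thin sheet of matrix under endothelium and epithelium, built from a type IV collagen network and a laminin network that nidogen and perlecan join. The fenestrated endothelium of liver sinusoids is known for lacking a continuous sheet of this kind, although its components are present in the space between endothelium and hepatocytes. Continuous basement membrane is known to form along sinusoids in chronic liver injury.

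Sequences are shown for the members whose genomic arrangement or levels the results below turn on. Col4a1 and Col4a2 lie head to head on chromosome 8, on opposite strands: in GRCm38, Col4a1 spans 11198423 to 11312826 on the minus strand and Col4a2 spans 11312805 to 11449287 on the plus strand. Their first exons share 22 bases at chr8:11312805-11312826, in RefSeq and in GENCODE alike, shown on the plus strand with all of the shared bases in capitals.

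Col4a1 and Col4a2 shared start: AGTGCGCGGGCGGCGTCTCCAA

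The pair is followed below across cells and zones. Promoter stretches upstream of the annotated start, taken from the RefSeq window of 8 members (Fn1 and Lama4 had none in that table), are shown 5′ to 3′ on the gene's own strand for 3 genes: Hspg2 and Col13a1, the members with the largest shares of their UMIs in sinusoidal endothelial cells, and Ltbp4, which differed most between lobule zones. Hspg2 (perlecan) is at chr4:137468553-137468768 on the plus strand, Col13a1 at chr10:61979109-61979358 on the minus strand and Ltbp4 at chr7:27337693-27337862 on the minus strand, all in GRCm38.p6. Capitals mark the TATA box letters TATAAA, the box written CCAAT, the GC box letters GGGCGG, and the reverse complement of each, since both strands were searched.

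Hspg2: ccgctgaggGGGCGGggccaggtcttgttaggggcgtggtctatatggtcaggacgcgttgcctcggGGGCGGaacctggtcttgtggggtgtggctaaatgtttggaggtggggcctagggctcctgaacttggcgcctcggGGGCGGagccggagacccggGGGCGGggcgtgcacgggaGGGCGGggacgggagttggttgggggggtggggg

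Col13a1: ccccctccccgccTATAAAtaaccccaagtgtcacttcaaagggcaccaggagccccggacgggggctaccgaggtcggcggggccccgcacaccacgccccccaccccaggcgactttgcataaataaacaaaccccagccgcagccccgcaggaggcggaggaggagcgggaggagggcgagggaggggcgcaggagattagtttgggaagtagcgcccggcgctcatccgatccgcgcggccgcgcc

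Ltbp4: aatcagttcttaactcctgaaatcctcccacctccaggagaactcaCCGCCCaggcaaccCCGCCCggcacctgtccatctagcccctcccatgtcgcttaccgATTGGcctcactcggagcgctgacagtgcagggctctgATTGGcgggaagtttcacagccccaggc

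The 216 bases of Hspg2 held 5 copies of GGGCGG, all on its own strand. Of all RefSeq windows cut to the same length, 27.9% held at least 1 copy and 1.08% held as many. The 250 bases of Col13a1 held 1 TATAAA, as did 12.4% of windows of that length. The 170 bases of Ltbp4 held 2 copies of CCAAT and 2 copies of GGGCGG, all on the opposite strand, so they stand here as reverse complements. As many copies of CCAAT were found in 4.63% of windows of that length, and as many of GGGCGG in 7.28%. RefSeq gives 3 windows for Ltbp4, of which the outermost is shown, without the bases inside the annotated gene. Those bases held 1 further GGGCGG on the gene's own strand, and each of the other windows held 3 there and no CCAAT. These are matches of letters in a window and not measured binding sites.

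Among the 8 compared classes, 9 of the 10 genes were at their highest in sinusoidal endothelial cells, and Fn1 alone was highest elsewhere, in the monocyte gate. In classes too small to compare, Lamb2 (165 CPM) and Ltbp4 (1200.4 CPM) were higher in 12 vascular endothelial cells. Fn1 (173 CPM) was higher in 6 cholangiocyte cells, where 8 of its 11 UMIs lay in 1 cell. UMIs were summed over the cells of a class and are given as CPM, the count per 1000000 UMIs of the class, with Poisson intervals (95%, exact). Together the 10 genes made up 5381 CPM of the RNA of sinusoidal endothelial cells (interval 5315 to 5448), against 171 CPM in the monocyte gate, 37.6 CPM in Kupffer cells and 13.1 CPM in NK or ILC1 cells. All 9 lay at least 10-fold above the highest other class, where 5.29% of the 6083 genes at 50 CPM or more in any compared class did so, and 13.4% passed 2-fold. The lowest of the 9 ratios under any alternative processing was 10.5, for Lama4 with each cell thinned to 1000 UMIs. Among the 3640 genes at 50 CPM or more in sinusoidal endothelial cells themselves, the shares were 8.85% and 22.4%. Fn1, 1 of 10 members, lay at least 2-fold below the highest other class, as did 47% of all genes. The members were chosen with earlier results of these data known, so their count cannot be read as enrichment over these shares. All other compared classes are immune cells. These shares are descriptions: cells of a library are not replicates and each treatment has 1 library, so no test was run. All intervals cover counting error only and hold no variation between mice, libraries or cells.

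**Figure D1:**
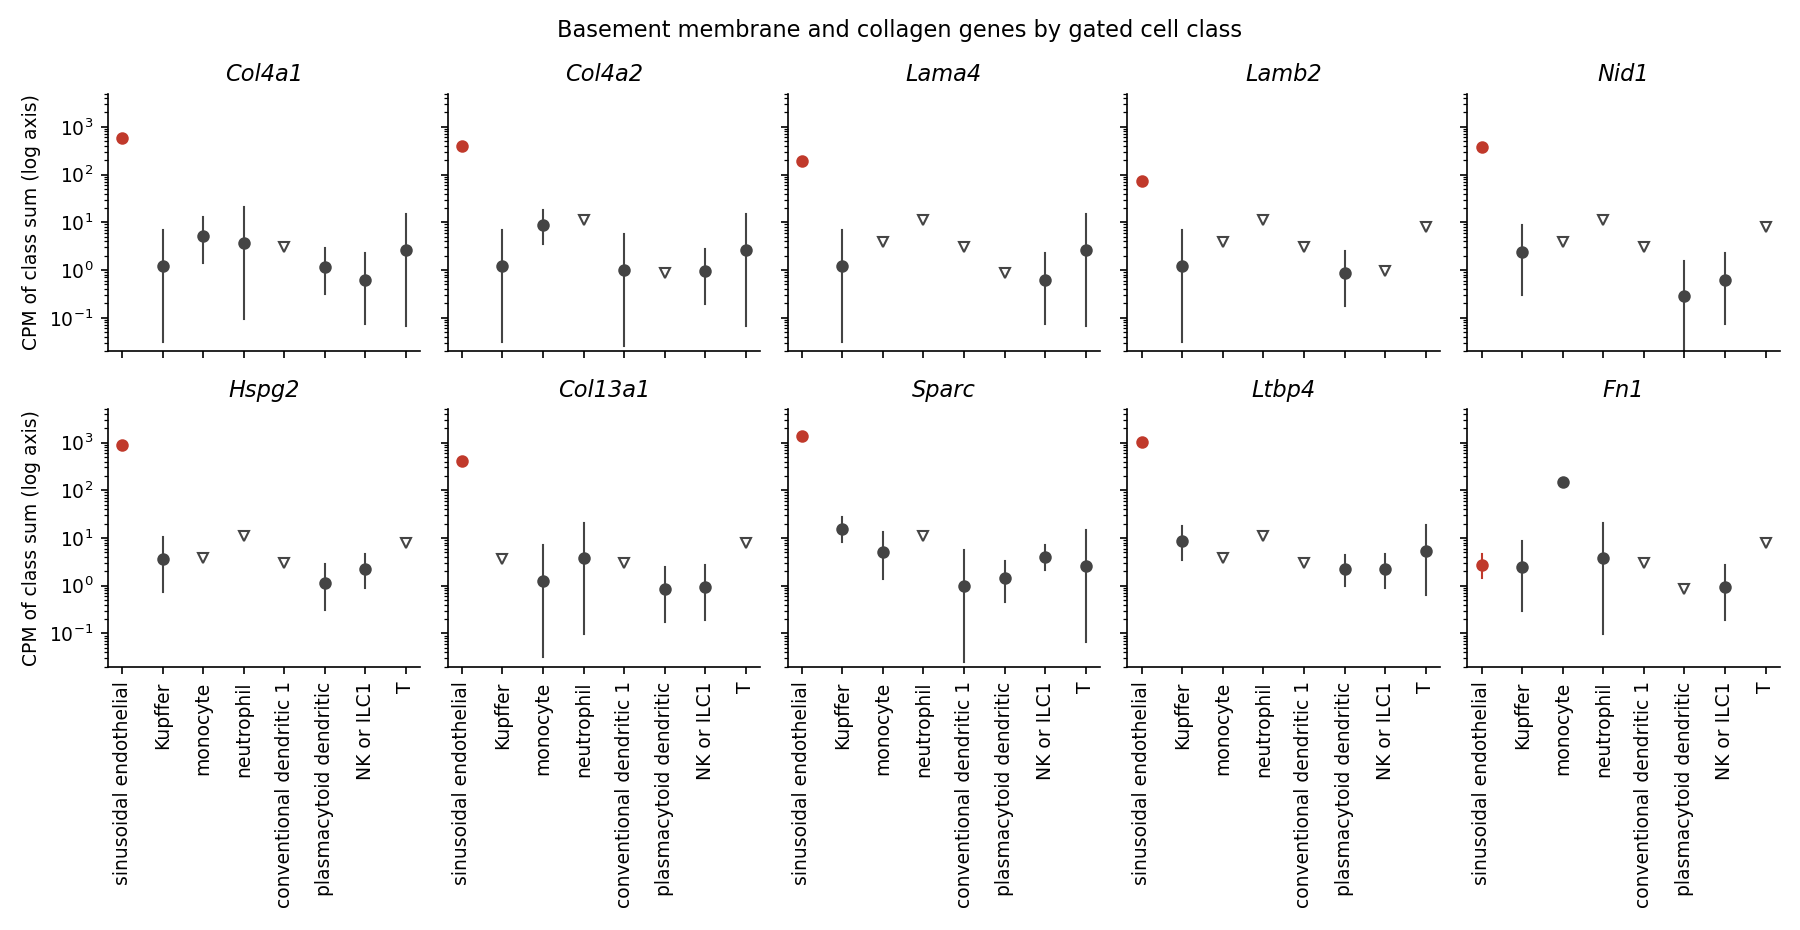
Level of each of the 10 genes in 8 gated cell classes, as CPM of the summed UMIs on a log axis. Points are class sums with exact Poisson intervals (95%), red for sinusoidal endothelial cells, and open triangles mark the level that 3 UMIs would give in a class with none. For 9 genes the sinusoidal endothelial point stands at least 10-fold above every other compared class; for Fn1 the monocyte point, at 151 CPM, stands highest.

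Col4a1 and Col4a2 encode the alpha1 and alpha2 chains of type IV collagen, which assemble together into the main basement membrane network. In sinusoidal endothelial cells Col4a1 was at 619, 553 and 593 CPM under suffixes 1, 2 and 3 (pooled 593, from 2807 UMIs), against 5.11 CPM in the monocyte gate, the next class. The ratio was 116 (interval 45.3 to 426). Col4a2 was at 415, 355 and 408 CPM (pooled 401, from 1898 UMIs), against 8.95 CPM in the monocyte gate, a ratio of 44.8 (21.7 to 112). The 3 libraries lay close together for both genes, and no interval of a compared class overlapped that of sinusoidal endothelial cells.

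Of the 820 sinusoidal endothelial cells, 635 had a Col4a1 UMI, 576 a Col4a2 UMI, 510 both and 119 neither, so Col4a2 was found in 80.3% of the Col4a1 cells, against 70.2% of all 820, and Col4a1 in 88.5% of the Col4a2 cells, against 77.4% of all 820. Deeper cells detect more genes, and the part of depth in these shares was not tested. There were 1.48 UMIs of Col4a1 per UMI of Col4a2 (interval 1.39 to 1.57), with 1.49, 1.56 and 1.45 under suffixes 1, 2 and 3. This ratio of captured 3′ ends is not a ratio of chains. An annotated antisense gene, Gm15418, lies within 500 bases of the 3′ end of Col4a1, and no source used here states the strand setting of the counting, so reads from it could be counted with Col4a1.

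Lama4 and Lamb2 encode the alpha4 and beta2 chains of laminins, trimers that bind cells to the basement membrane; the alpha4 chain is known from endothelial laminins. Lama4 was at 233, 191 and 181 CPM under suffixes 1, 2 and 3 in sinusoidal endothelial cells (pooled 196, from 928 UMIs), against 2.62 CPM in T cells, where it rested on 1 UMI, a ratio of 74.9 (13.4 to 2962). Lamb2 was at 73.2, 65.4 and 73.8 CPM (pooled 72.3, from 342 UMIs), against 1.21 CPM in Kupffer cells, again from 1 UMI, a ratio of 59.6 (10.6 to 2362). Both laminin genes were near 0 in the other compared classes, and the upper ends of these ratios are set by a single UMI. In 6 cholangiocyte cells, too few to compare, Lama4 was at 94.5 CPM (6 UMIs) and Lamb2 at 47.3 CPM (3 UMIs). Usp19 lies within 500 bases of the 3′ end of Lamb2.

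Nid1 encodes nidogen-1, which bridges laminin and type IV collagen, and Hspg2 encodes perlecan, a large heparan sulfate proteoglycan of basement membranes. Nid1 was at 383, 423 and 370 CPM under suffixes 1, 2 and 3 in sinusoidal endothelial cells (pooled 382, from 1806 UMIs), against 2.42 CPM in Kupffer cells, a ratio of 157 (43.5 to 1301). Hspg2 was at 903, 803 and 928 CPM (pooled 902, from 4266 UMIs), against 3.64 CPM in Kupffer cells, a ratio of 248 (84.8 to 1203). The 3 libraries lay close together for both genes, and the Kupffer values rested on 2 and 3 UMIs.

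Col13a1 encodes type XIII collagen, a collagen that spans the cell membrane. It was at 361, 275 and 465 CPM under suffixes 1, 2 and 3 in sinusoidal endothelial cells (pooled 408, from 1929 UMIs), against 3.76 CPM in neutrophils, from 1 UMI, a ratio of 109 (19.5 to 4289). It had the widest spread between libraries of the 9 genes, and 94.6% of its UMIs in kept cells came from the sinusoidal endothelial gate.

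Sparc encodes a secreted glycoprotein that binds collagens, and Ltbp4 a latent TGF-beta binding protein that takes part in elastic fibre assembly. Sparc was at 1516, 1399 and 1325 CPM under suffixes 1, 2 and 3 in sinusoidal endothelial cells (pooled 1386, from 6559 UMIs), against 15.8 CPM in Kupffer cells, a ratio of 88.0 (51.4 to 165). Ltbp4 was at 1197, 908 and 1005 CPM (pooled 1039, from 4915 UMIs), against 8.49 CPM in Kupffer cells, a ratio of 122 (59.4 to 305). The highest other class stayed under 20 CPM for both.

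Most sinusoidal endothelial cells carried several of these transcripts, while single genes ranged widely in detection. Of the 820 cells, 808 (98.5%) had a UMI of at least 1 of the 10 genes, the median cell had 7 of them, and 640 cells (78.0%) had 5 or more. In NK or ILC1 cells, which should lack these transcripts and had a median depth of 6425 UMIs, 36 of 505 (7.13%) had any. With every cell thinned to 1000 UMIs, the share was 97.3% in 774 sinusoidal endothelial cells (46 shallower ones left out) and 0.990% in NK or ILC1 cells. By gene, thinned shares of sinusoidal endothelial cells were 66.4% for Sparc, 57.5% for Hspg2, 53.9% for Ltbp4, 38.1% for Col4a1, 28.0% for both Col4a2 and Col13a1, 26.9% for Nid1, 15.2% for Lama4 and 6.46% for Lamb2. The NK or ILC1 share reached at most 0.594% for any of these genes. For Fn1 the thinned sinusoidal endothelial share of 0.129%, from 1 cell, lay within the limits of NK or ILC1 cells (0 of 505, up to 0.728%). Unthinned, Fn1 had 13 UMIs in sinusoidal endothelial cells, 3 in NK or ILC1 cells and 0 in plasmacytoid dendritic cells.

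Of the UMIs of the 9 genes in kept cells, between 83.0% (Lamb2) and 94.6% (Col13a1) lay in the sinusoidal endothelial gate. Much of the rest came from ungated cells that carried sinusoidal markers. In the 76 ungated cells with at least 3 sinusoidal marker UMIs, Col4a1 was at 339 CPM, Sparc at 810 CPM and Ltbp4 at 903 CPM. In the 872 ungated cells below that minimum they were at 4.14, 16.1 and 11.8 CPM.

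Stellate cells and fibroblasts, which are known as main producers of liver matrix, were almost absent from the data. No kept cell passed the stellate or fibroblast gate, and all kept cells together held 56 UMIs of its 5 markers (Lrat, Dcn, Reln, Pdgfrb and Colec11). Inside the sinusoidal endothelial gate these markers summed to 5.71 CPM (3.29, 9.16 and 5.81 under suffixes 1, 2 and 3), with 1 of 5 at 0. Smooth muscle and pericyte markers summed to 2.54 CPM there, with 4 of 5 at 0. The 9 genes therefore stood in these cells at levels between 72.3 and 1386 CPM where markers of mesenchymal cells were close to 0.

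Vascular endothelial cells (Vwf, Cd34, Sox17 and Plvap) numbered only 12 and are given as values. Col13a1 was at 408 CPM in sinusoidal endothelial cells, against 23.5 CPM in vascular ones (2 UMIs), a ratio of 17.3 (4.79 to 143). Lamb2 ran the other way, with 72.3 CPM in sinusoidal and 165 CPM in vascular endothelial cells, a ratio of 0.439 (0.258 to 0.811). Both intervals leave out 1, on counting error from 12 cells. For Ltbp4 the values were 1039 CPM in sinusoidal and 1200 CPM in vascular cells, a ratio of 0.865 (0.711 to 1.06) that includes 1. The other 6 genes, Fn1 aside, had ratios between 1.51 (Lama4) and 3.41 (Col4a2), and Fn1 had no UMI in vascular cells.

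Fn1 encodes fibronectin, a glycoprotein of plasma and tissue matrix that hepatocytes secrete in large amounts and that macrophages and mesenchymal cells also make. It was at 2.75 CPM in sinusoidal endothelial cells (13 UMIs; 4.11, 1.31 and 2.54 CPM under suffixes 1, 2 and 3), against 151 CPM in the monocyte gate (118 UMIs; 166, 41.9 and 301 CPM), a ratio of 0.0182 (0.00942 to 0.0324). The monocyte value depended on the libraries included, with 232 CPM without suffix 2 and 92.3 CPM without suffix 3, where the ratio was 0.0328. The sinusoidal level was close to the 2.42 CPM of Kupffer cells, and NK or ILC1 cells had 0.939 CPM. Genes at least 2-fold higher in the monocyte gate than in every other compared class made up 1.73% of all genes. The range over the 3 libraries in the monocyte gate was wide, and it lay above the sinusoidal range in each library.

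The monocyte level was carried by few cells. A split of this gate, chosen after the values were seen, separated 4 cells in which Chil3 and F13a1 (markers of classical monocytes) held more UMIs than Ace, Eno3 and Cd300e (markers of nonclassical monocytes) from 116 cells in which the reverse held. The 4 cells had 111 of the 118 UMIs, at 2582 CPM (interval 2124 to 3109), against 7 UMIs and 9.47 CPM (3.81 to 19.5) in the 116 cells. There were 1, 1 and 2 of the 4 cells under suffixes 1, 2 and 3. They gave 2437, 2442 and 2699 CPM, against 9.34, 9.10 and 10.2 CPM in the 116 cells.

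The same held for Fn1 across all kept cells. A UMI of Fn1 was found in 56 of 3230 cells, of which 34 had exactly 1 and 5 had 3 or 4. Another 10 cells had between 8 and 52 UMIs and held 257 of the 323 (79.6%), a threshold of 5 UMIs also chosen after the values were seen. Of these 10, 8 cells also had UMIs of Ccr2 and of F13a1 or Chil3, with a median depth of 13153 UMIs, and they held 241 UMIs (74.6%). They were 4 cells of the monocyte gate and 4 ungated ones, with 5, 1 and 2 under suffixes 1, 2 and 3. Among classes too small to compare, Fn1 had 20.8 CPM in 43 conventional dendritic 2 cells (12 UMIs) and 173 CPM in 6 cholangiocyte cells (11 UMIs). Of these 11 UMIs, 8 lay in 1 cell that also had 83 UMIs of Alb, a hepatocyte transcript. Of the 6 cholangiocyte cells, 2 were called doublets. Alb was at 96.2 CPM in sinusoidal endothelial cells, 44.7 CPM in the monocyte gate and 209.7 CPM in Kupffer cells. The part of hepatocyte RNA in the Fn1 values was not tested.

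Along the axis of the liver lobule, Col4a2 and Lamb2 were at least 1.5-fold higher near the central vein and Ltbp4 and Lama4 near the portal tract. The other 5 endothelial genes (Col4a1, Col13a1, Hspg2, Nid1 and Sparc) stayed under 1.5-fold. Sinusoidal endothelial cells were placed by raw UMIs of pericentral genes (Wnt2, Rspo3, Wnt9b, Kit, Cdh13 and Thbd) or periportal genes (Dll4, Efnb2, Efnb1, Msr1, Ntn4 and Adam23), at least 2 UMIs and at least 3 times the other list, with no member in either list. This gave 72 pericentral cells (13, 7 and 52 under suffixes 1, 2 and 3), 319 between the gates and 429 periportal cells (120, 81 and 228). Their median depths were 6115.5, 5337 and 5962 UMIs. The 319 between-gate cells are those that passed neither zone gate, so they mark no set position in the lobule. At a fold of 1.5, 2 of 9 members were higher in pericentral cells, as were 9.08% of 4055 genes, and 2 of 9 were higher in periportal cells, as were 6.73%. Without suffix 3 the counts were 4 and 1. The median log2 ratio of pericentral to periportal CPM was 0.27 over the 9 genes and 0.05 over all 4055.

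**Figure D2:**
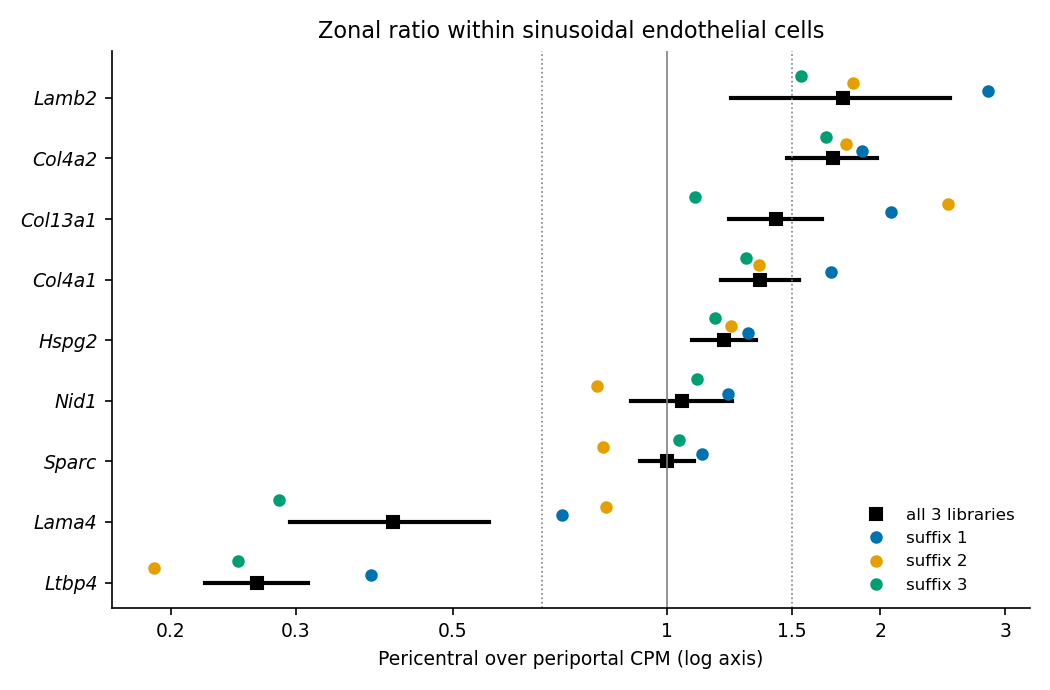
Ratio of pericentral to periportal CPM for 9 genes within sinusoidal endothelial cells, on a log axis. Black squares with bars are the 3 libraries pooled with exact intervals (95%), coloured points are single suffixes, the solid line marks 1 and the dotted lines mark 1.5-fold either way. Ltbp4 lies lowest at 0.265 with all 3 suffixes below 0.4, whereas the suffixes of Lama4 and Col13a1 spread widely.

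Ltbp4 showed the largest zonal difference of the 9 genes. It was at 349 CPM in pericentral cells, 790 CPM between the gates and 1315 CPM in periportal cells, a pericentral to periportal ratio of 0.265 (interval 0.224 to 0.312). The ratios were 0.383, 0.189 and 0.249 under suffixes 1, 2 and 3. Expressed the other way, Ltbp4 was 3.77-fold higher in periportal cells (3.20 to 4.47), and the cells between the gates lay in between.

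Lama4 ran in the same direction, with 99.2, 152 and 241 CPM in pericentral, between-gate and periportal cells, a ratio of 0.412 (0.295 to 0.561). Its size rested on 1 library: the ratios were 0.713, 0.820 and 0.284 under suffixes 1, 2 and 3, and 0.744 without suffix 3. Suffix 3 held 52 of the 72 pericentral cells.

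The type IV collagen pair was higher toward the central vein. Col4a2 was at 549, 487 and 321 CPM in pericentral, between-gate and periportal cells, a ratio of 1.71 (1.48 to 1.98). Under suffixes 1, 2 and 3 the ratio was 1.89, 1.79 and 1.68. The pooled ratio fell just below the fold of 1.5, to 1.47, when Kit and Adam23, the highest gene of each zone list, were left out. Col4a1 was at 704, 678 and 520 CPM, a ratio of 1.35 (1.19 to 1.53), with 1.71, 1.35 and 1.29. Both genes kept this direction in each library, but the Col4a1 interval under suffix 2 (7 pericentral cells) included 1 (0.936 to 1.89). The balance of the pair also differed: Col4a1 had 1.28 UMIs per UMI of Col4a2 in pericentral cells (1.08 to 1.52), 1.39 between the gates and 1.62 in periportal cells (1.49 to 1.77), and the pericentral and periportal intervals overlapped slightly.

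Lamb2 was at 99.2, 90.4 and 56.0 CPM in pericentral, between-gate and periportal cells, a ratio of 1.77 (1.23 to 2.50). Under suffixes 1, 2 and 3 the ratio was 2.84, 1.83 and 1.54. The pericentral value rested on 43 UMIs. In the pooled cells the alpha4 and beta2 laminin chain genes thus ran in opposite directions along the lobule. By suffix, the interval of Lama4 left out 1 only under suffix 3 (0.173 to 0.442). That of Lamb2 did so only under suffix 1 (1.33 to 5.55). Hspg2 was at 1013, 966 and 841 CPM, a smaller ratio of 1.20 (1.08 to 1.34).

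Col13a1 was at 503, 468 and 353 CPM in pericentral, between-gate and periportal cells, a ratio of 1.43 (1.23 to 1.66). Its suffixes differed, however, with 2.07, 2.49 and 1.10. Without suffix 3 the ratio was 2.19, and with each cell thinned to 1000 UMIs it was 0.919, on the other side of 1. Its zonal difference was thus not settled at this depth. Nid1 (409, 365 and 388 CPM, ratio 1.05, 0.892 to 1.24; 0.790 after thinning) and Sparc (1362, 1432 and 1360 CPM, ratio 1.00, 0.916 to 1.09) had intervals that included 1.

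**Figure D3:**
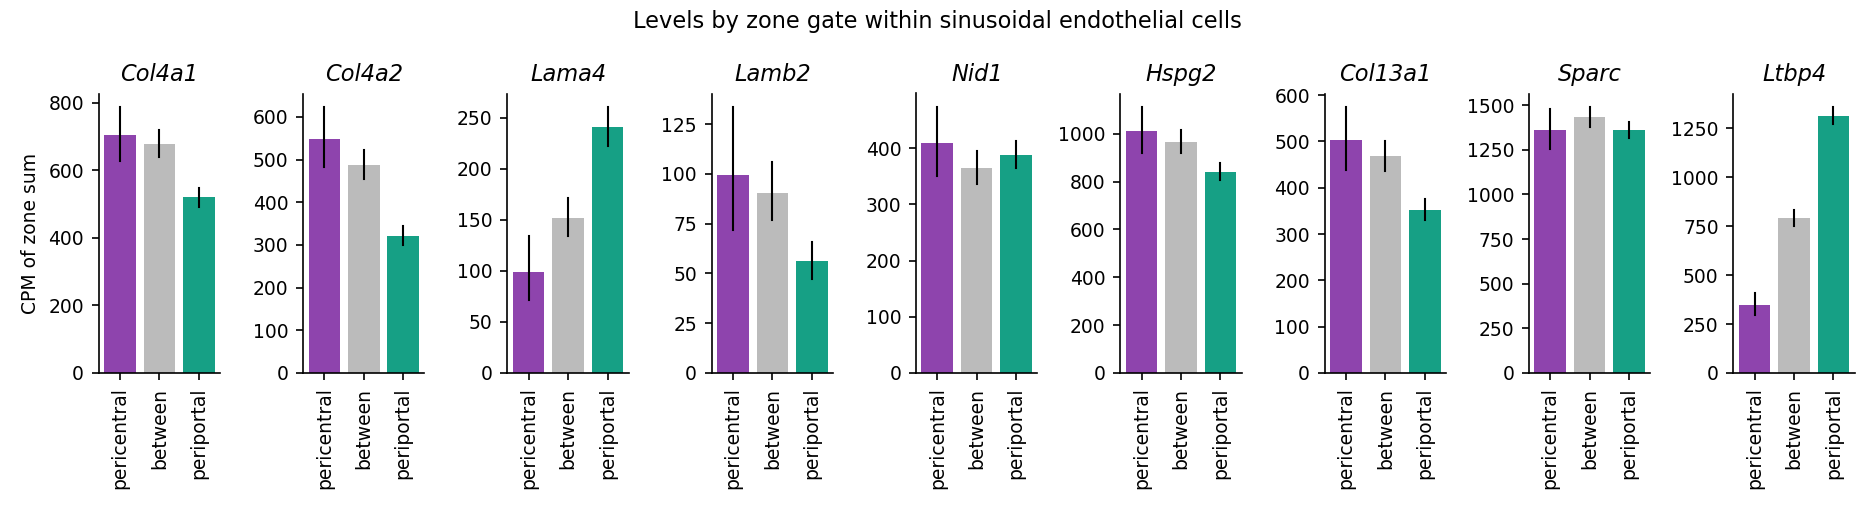
CPM of 9 genes in pericentral, between-gate and periportal sinusoidal endothelial cells (72, 319 and 429 cells). Each panel has its own linear axis from 0, with exact Poisson intervals (95%) as bars. Ltbp4 and Lama4 climb toward the periportal side, Col4a1, Col4a2 and Lamb2 toward the pericentral side, and Sparc stays between 1360 and 1432 CPM.

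Between the libraries, levels in sinusoidal endothelial cells were close for 8 of the 9 genes. The ratio of the highest to the lowest suffix reached 1.5 only for Col13a1, at 1.69 (465 CPM under suffix 3 and 275 CPM under suffix 2), that is for 1 of 9 members, where 10.8% of 4034 genes reached it. The median of this ratio was 1.16 over the 9 genes and 1.21 over all 4034, and the other members lay between 1.12 (Col4a1) and 1.32 (Ltbp4). Within periportal cells alone, Col13a1 was at 315, 239 and 416 CPM under suffixes 1, 2 and 3, in the same order as in all sinusoidal endothelial cells. The order differed in the pericentral cells (13, 7 and 52 cells), at 653, 594 and 457 CPM, with suffix 3 lowest. The part of zone in the library difference was not tested.

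Other values moved with the suffix as well. Pericentral cells made up 6.40%, 5.26% and 10.7% of sinusoidal endothelial cells under suffixes 1, 2 and 3, and periportal cells 59.1%, 60.9% and 47.1%. Hepatocyte transcripts (8 genes) summed to 211, 404 and 161 CPM in the gate, haemoglobin to 14.0, 118 and 141 CPM and 5 pan-endothelial genes to 10663, 9599 and 10878 CPM. Suffix 2, lowest for Col13a1, was thus highest in hepatocyte transcripts and lowest in endothelial ones, and the part of these in the Col13a1 difference was not tested.

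**Figure D4:**
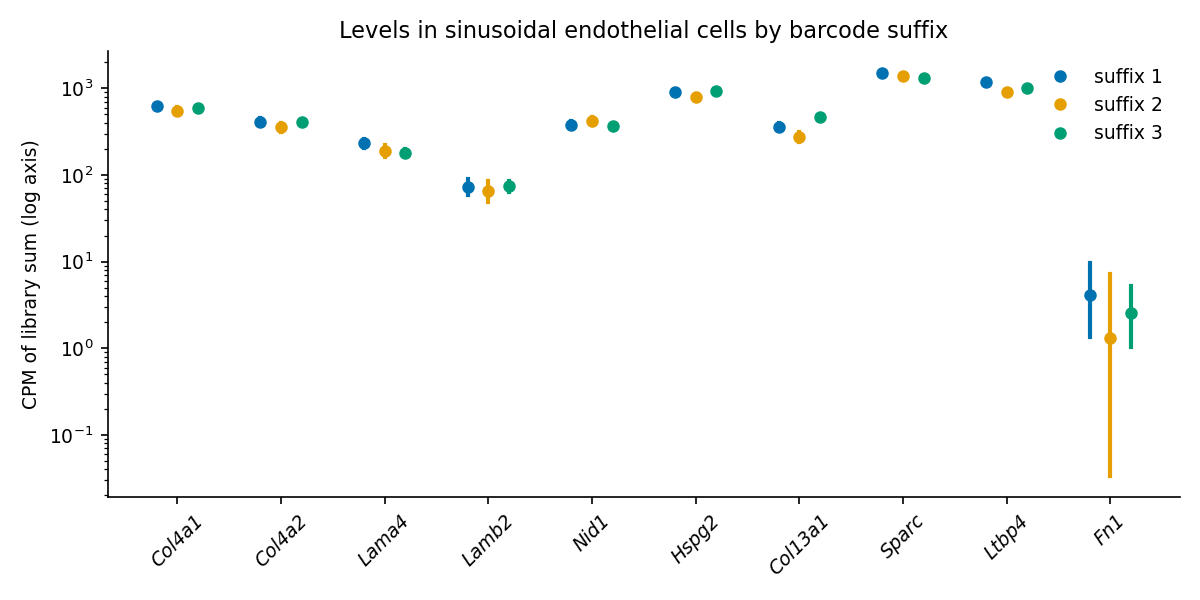
CPM of the 10 genes in sinusoidal endothelial cells by library suffix, on a log axis, with exact Poisson intervals (95%). The 3 suffixes lie close together for most genes; Col13a1 runs between 275 and 465 CPM, and Fn1 stays under 5 CPM in every library.

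The genes whose pattern was most like that of a member were ranked by Pearson's r of log2(CPM + 10) over 22 sums of a class within a suffix (10 classes with at least 20 cells in that sum, 6083 genes). These r values are descriptions with no p, because all sums of a suffix share a library and the contrast of endothelium with immune cells dominates them. Col4a1 was most like Col4a2 (r = 0.995), followed by Hmcn1, Nfib, Pcdh12 and Pxdn. Col13a1 was most like Ephb4 (0.998), then Sema3f, Tmem132e, Pabpc4l and Pxdn. Ltbp4 was most like Ramp2 (0.998), then Srgap1, Fermt2, Pla2r1 and Fam124a. Fn1 was most like F13a1 (0.950), then Ace (0.912), Dpep2, Ly6i and Eno3, of which F13a1, Ace and Eno3 are markers of the monocyte gate. Sums over a gate cannot show whether genes share cells. Within the monocyte gate, 111 Fn1 UMIs lay in the 4 cells led by Chil3 and F13a1. The 116 cells led by Ace, Eno3 and Cd300e were at 9.47 CPM.

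Lists of further matrix genes put the members in context. As before, the fold was 2 against the highest other compared class, and the level 50 CPM in any compared class. Of all 6083 genes at that level, 13.4% were higher and 47% lower in sinusoidal endothelial cells. Vascular endothelial cells, too few to compare, do not enter these counts. Of 18 other basement membrane genes, 3 reached 50 CPM and all 3 were higher in sinusoidal endothelial cells than in the other compared classes, while 9 had no UMI there. Pxdn, a peroxidase that crosslinks type IV collagen, was at 200 CPM against 1.28 CPM in the monocyte gate. Agrn (agrin, 73.8 CPM) and Lamc1 (the laminin gamma1 chain, 64.2 CPM) were the others. In the 12 vascular endothelial cells Agrn and Lamc1 were higher, each at 141 CPM (12 UMIs each), and Pxdn lower, at 70.6 CPM (6 UMIs). Lamc1 was higher in pericentral than in periportal cells (108 and 53.3 CPM, ratio 2.03, 1.43 to 2.85), the same direction as Lamb2. The Lamc1 ratio was 1.96 (interval 0.678 to 4.70), 2.93 and 1.81 under suffixes 1, 2 and 3. Lamb1, which encodes another laminin beta chain, had no UMI in the 820 cells, which allows up to 0.634 CPM, nor in any other compared class.

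Fibrillar collagens, which include the main scar collagens, were low in the compared classes. None of 11 reached 50 CPM in any compared class. In sinusoidal endothelial cells the highest were Col27a1 at 26.0 CPM, Col5a2 at 21.1 CPM and Col11a2 at 1.48 CPM, while Col1a1 had no UMI and Col3a1 had 1. Col5a2 was at 50.8 CPM in pericentral and 12.7 CPM in periportal cells, a ratio of 4.01 (2.23 to 7.09). This rested on 5, 1 and 16 pericentral UMIs under suffixes 1, 2 and 3. The ratios by suffix were 6.06, 2.93 (interval 0.0557 to 36.4) and 3.43. None of 13 other collagens reached 50 CPM in a compared class either. The highest in sinusoidal endothelial cells were Col17a1 at 3.80 CPM, Col23a1 at 1.69 CPM and Col25a1 at 1.48 CPM. By contrast the 3 collagen members stood between 401 and 593 CPM in the same cells. These are 3′ UMI counts, taken per molecule and not per transcript length. In the 12 vascular endothelial cells, too few to compare, some of the listed collagens were higher. Col8a1 was at 353 CPM there (30 UMIs), Col6a3 at 235 CPM (20 UMIs), Col5a2 at 106 CPM (9 UMIs) and Col14a1 at 94.1 CPM (8 UMIs).

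Among 22 genes of collagen synthesis, 9 reached 50 CPM, of which 2 were higher and 3 lower in sinusoidal endothelial cells. Serpinh1, the collagen chaperone of the endoplasmic reticulum, was at 231 CPM against 49.4 CPM in plasmacytoid dendritic cells (ratio 4.68, 3.99 to 5.52). It was 1.74-fold higher in pericentral than in periportal cells (1.45 to 2.08). By suffix this zonal ratio was 2.18, 1.63 (interval 0.946 to 2.69) and 1.74 under suffixes 1, 2 and 3. P4hb (196.8 CPM) and Plod1 (181 CPM), which serve prolyl and lysyl hydroxylation, were within 2-fold of the Kupffer level. Ppib was lower in sinusoidal endothelial cells, at 164 CPM against 522 CPM in conventional dendritic 1 cells, as was Colgalt1, at 126 CPM against 274 CPM in Kupffer cells.

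Of 19 genes for elastic fibres and latent TGF-beta, 3 reached 50 CPM, of which 1 was higher and 1 lower in sinusoidal endothelial cells. Emilin1, an elastin-associated glycoprotein, was at 384 CPM against 25.6 CPM in the monocyte gate (ratio 15.0, 9.69 to 24.6). It was 1.57-fold higher in pericentral cells (1.35 to 1.82), opposite to Ltbp4. The Emilin1 ratio was 1.93, 1.22 (interval 0.711 to 1.97) and 1.47 under suffixes 1, 2 and 3. Tgfb1, the growth factor that latent TGF-beta binding proteins hold in the matrix, was at 234 CPM against 323 CPM in the monocyte gate. Efemp2 was at 17.1 CPM, and Emilin2 was at 1.48 CPM against 222 CPM in neutrophils. Ltbp1 and Ltbp2, relatives of Ltbp4, had no UMI in sinusoidal endothelial cells, and Ltbp3 had 13. Some of the listed genes were higher in the 12 vascular endothelial cells, too few to compare. Fbln2 was at 859 CPM there (73 UMIs), Eln at 377 CPM (32 UMIs) and Tgfb2 at 282 CPM (24 UMIs). In sinusoidal endothelial cells these were at 2.11, 0.634 and 0.211 CPM. Emilin1 was lower in the vascular cells, at 94.1 CPM (8 UMIs).

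Of 20 matrix receptor genes, 12 reached 50 CPM, with 4 higher and 5 lower in sinusoidal endothelial cells, beside 13.4% higher and 47% lower of all genes. Itga1, a collagen and laminin receptor subunit, was at 933 CPM against 281 CPM in NK or ILC1 cells (ratio 3.32, 3.09 to 3.57), and its partner Itgb1 was at 633 CPM against 417 CPM in the monocyte gate. Itga9 was at 425 CPM against 302 CPM in Kupffer cells and was lower in pericentral than in periportal cells (ratio 0.561, 0.461 to 0.678). By suffix this zonal ratio was 0.505, 0.647 (interval 0.377 to 1.05) and 0.551 under suffixes 1, 2 and 3. The syndecans lay elsewhere, with Sdc3 at 201 CPM against 1864 CPM in Kupffer cells and Sdc4 at 43.5 CPM against 424 CPM in plasmacytoid dendritic cells.

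Of 19 matrix proteases and inhibitors, 7 reached 50 CPM, with 2 higher and 4 lower in sinusoidal endothelial cells. Timp3, a matrix-bound protease inhibitor, was at 2071 CPM against 13.3 CPM in Kupffer cells (ratio 155, 86.8 to 311), and Adamts1 was at 136 CPM against 0.284 CPM in plasmacytoid dendritic cells, from 1 UMI. Mmp14 was at 251 CPM against 142 CPM in Kupffer cells. The secreted neutrophil proteases were the reverse. Mmp9 had no UMI in sinusoidal endothelial cells, against 860 CPM in neutrophils, and Mmp8 was at 1.27 CPM against 853 CPM. In the 12 vascular endothelial cells Timp3 was higher than in sinusoidal ones, at 4060 CPM (345 UMIs), and Adamts1 was at 153 CPM (13 UMIs).

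Of 15 matricellular proteins and fibronectin partners, 4 reached 50 CPM, with 2 higher and 1 lower in sinusoidal endothelial cells. Igfbp7, a secreted protein of vascular matrix, was at 3343 CPM against 26.7 CPM in Kupffer cells (ratio 125, 82.8 to 200.1). Ctgf was at 531 CPM against 2.56 CPM in the monocyte gate, and at 198 CPM in pericentral against 763 CPM in periportal cells (ratio 0.260, 0.207 to 0.323). By suffix the ratio was 0.435, 0.233 and 0.323 under suffixes 1, 2 and 3, below 1 in each as in the pooled cells. Its level differed between libraries, with 653, 1132 and 310 CPM under suffixes 1, 2 and 3. Tgm2, a crosslinking enzyme that binds fibronectin, was at 229.5 CPM against 357 CPM in neutrophils, and 2.11-fold higher in pericentral cells (1.75 to 2.53). Thbs1 was at 0.634 CPM against 624 CPM in neutrophils. In the 12 vascular endothelial cells Igfbp7 was at 1600 CPM (136 UMIs) and Ctgf at 683 CPM (58 UMIs).

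**Figure D5:**
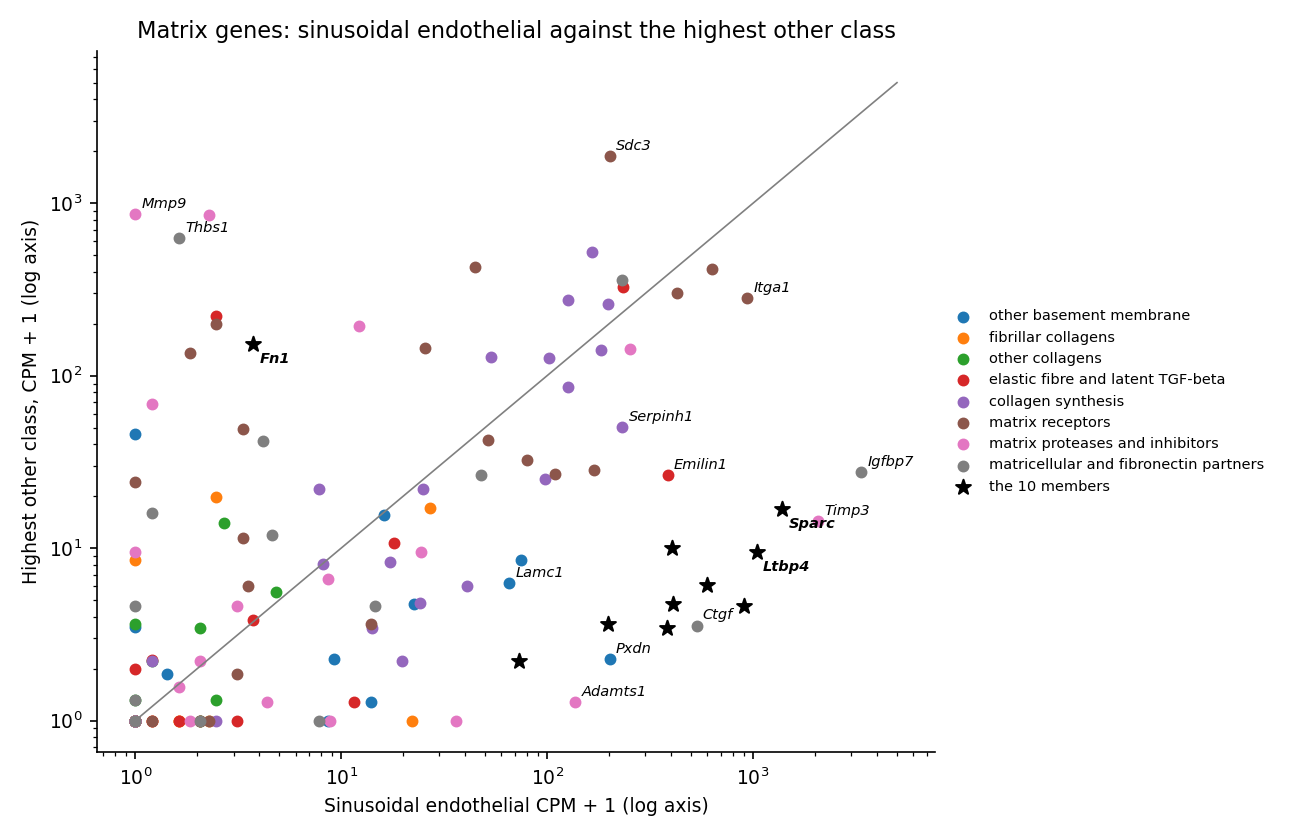
CPM + 1 in sinusoidal endothelial cells (horizontal) against the highest other compared class (vertical), both on log axes, for the 10 genes (stars) and 8 lists of matrix genes (coloured points). The line marks equal levels. The 9 endothelial members lie far below the line with Timp3, Igfbp7, Ctgf and Pxdn, whereas Fn1 lies above it with Mmp9 and Thbs1.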

How the data were processed

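Per the labels, sorted liver cells were profiled with 10x 3′ version 3 chemistry. The authors deposited a single matrix of raw UMI counts (31053 genes, 4638 barcodes), which Cell Ranger 3.1.0 wrote, per the file headers. The submitters' processing notes name the genome build mm10 and, beside Cell Ranger, the tools STAR, Seurat and edgeR. Filters, the gates and the zone lists are given with the results. The members and lists were chosen with earlier results of these data known. Genes named from a list are the 3 with the highest CPM in sinusoidal endothelial cells, and up to 2 at 50 CPM or more and at least 2-fold higher in another class; other named genes were chosen after their values were seen. Ccn1 and Ccn2 were matched as Cyr61 and Ctgf.

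UMIs were summed per class and expressed as CPM with exact Poisson intervals. Ratio intervals are exact given the sum of both counts, and those of shares are Clopper-Pearson. A class with no UMI is given the level of 3 counts as its limit. UMIs are not read counts, but captured molecules are still sampled, so depth sets the precision: class totals ran between 266219 UMIs (neutrophil) and 4731877 UMIs (sinusoidal endothelial). Scrublet (scanpy 1.11.5), run per suffix, called 23 of 3230 kept cells doublets, 8 of them in the sinusoidal endothelial gate; they were left in and removed in an alternative. Python 3.11.15, NumPy 2.4.6, SciPy 1.17.1, pandas 2.3.3, R 4.3.3 and edgeR 4.0.16 (for TMM factors, normalization factors over class sums) were used. Ratio intervals and gates were tested on simulated data. Positions come from GENCODE M21 on GRCm38, and sequences from RefSeq on GRCm38.p6. The sample sheets were not used.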

Additional observations from a re-analysis of the deposited data

Results flagged for a closer look

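The 1408 barcodes removed by the filters also held these transcripts. Of them, 200 had too few genes, 1300 had too many mitochondrial UMIs and 92 of these had both. The 10 genes together stood at 759 CPM of non-mitochondrial UMIs in the removed barcodes (interval 721 to 798), where a count of 0 would allow 1.502 CPM, and no result above uses them. The sinusoidal endothelial gate took 179 removed barcodes, in which the genes summed to 3552 CPM of non-mitochondrial UMIs, against 5844 CPM in the 820 kept cells. The genes were not lowered alike. Hspg2 was at 865 CPM in removed and 979 CPM in kept cells, and Lama4 at 189.5 and 213 CPM, with overlapping intervals for both genes (752 to 990.5 and 950 to 1009 CPM for Hspg2). Ltbp4 was at 478 CPM in removed and 1128 CPM in kept cells, Sparc at 812 and 1505 CPM, and Col4a1 at 325 and 644 CPM.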

How the results depend on the processing

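The count of members at least 2-fold above the highest other class was 9 under every alternative run: another mitochondrial maximum, gate minimum or gate dominance, doublets left out, TMM scaling, a reduced denominator, thinning and each suffix left out. The 10 genes summed to 5381 CPM in sinusoidal endothelial cells, and to 5608 CPM with a 10% mitochondrial maximum, 5187 CPM with none, 4709 CPM with TMM scaling (factor 1.14), 6208 CPM without mitochondrial, ribosomal protein, haemoglobin and hepatocyte genes in the total, 4915 CPM after thinning to 1000 UMIs, and between 5270 and 5460 CPM with a suffix left out. Without suffix 3, which holds most pericentral cells, 4 members were 1.5-fold higher in pericentral cells and 1 in periportal cells, in place of 2 and 2; leaving out another suffix kept both counts at 2. Thinned to 1000 UMIs, 3 members in place of 1 differed 1.5-fold between suffixes. At 2000 UMIs the share of sinusoidal endothelial cells with any member was 99.9%. The cause of these shifts was not tested beyond the smaller samples they use. No value past its fold changed direction. Zonal ratios under 1.5-fold did cross 1: Col13a1 was 0.919 and Nid1 0.790 after thinning, and Sparc, at 1.00, ranged between 0.974 and 1.12. Of 329 values for single genes, 62 moved, beyond their counting interval or, for the ratio between suffixes, by over 1.5 times. Fn1 in the monocyte gate ranged between 50.4 CPM (thinned, each cell weighing the same) and 238 CPM (gate dominance of 2), with 92.3 CPM without suffix 3. Neither a difference between treatments nor one between mice can be read from these data. No paired analysis was possible because each treatment has 1 library and no library has a known treatment.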
